A study of Mus musculus with 22 samples.

Results

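The nuclear genes for subunits of respiratory complexes III, IV and V were examined in a table of FPKM values (read fragments scaled by transcript length and library size) from mouse preimplantation embryos. They were chosen by symbol alone, as Cyc1 and every symbol that begins with Uqcr, Cox4, Cox5, Cox6, Cox7, Cox8 or Atp5, and 7 symbols that carry -ps were left out. This gave 46 of 55335 genes under 45 symbols, since Atp5o stands for 2 gene identifiers. Complex III had 9 of them, complex IV 19 and complex V 18. The study asked what the histone variant H2A.Z does in early embryos, and compared control embryos with embryos in which it was knocked down (KD) by small interfering RNA (siRNA). About 10 pL of a 20 µM mix of siRNAs against H2A.Z was injected into zygotes, and polyA RNA of 15 pooled embryos per library was sequenced with the Smart-seq2 protocol. The samples are labelled B6D2F1, and by the methods the zygotes came from superovulated B6D2F1 females crossed to males of the same hybrid. Embryos were taken as 2-cell embryos at 43 to 44 h, as morulae at 78 h and as blastocysts at 94 h after the hormone injection (hCG) that triggers ovulation. The paper reports that KD reduced the share of embryos that became blastocysts, but not the share that reached the morula stage. How the KD embryos pooled at 94 h were picked is not stated in the sources used here. Control libraries numbered 4 at each stage, and KD libraries 3 for 2-cell embryos, 3 for morulae and 4 for blastocysts. The sources used here do not state for these 22 libraries what the control zygotes received. For quantitative PCR the methods name noninjected control embryos. Replicate numbers were 1, 2, 4 and 5 for control and 1, 2 and 4 for KD 2-cell embryos. They were 1, 2, 7 and 8 for control and 1, 2 and 6 for KD morulae, and 1, 4, 5 and 6 in both groups of blastocysts. Values of single libraries are given in that order, as deposited. A log2 fold change was fitted on log2(FPKM + 1) of scaled values and stands with its SE and its adjusted p from limma with Benjamini-Hochberg adjustment over all genes tested. A gene passed the test when that p was under 0.05, and a differentially expressed gene (DEG) also had an absolute log2 fold change over 1.

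Complexes III, IV and V sit in the inner mitochondrial membrane. Complex III takes electrons from ubiquinol and passes them to cytochrome c, complex IV hands them on to oxygen, and both move protons across the membrane, whose return flow drives ATP synthesis in complex V. A few subunits are coded by the mitochondrial genome and the rest by nuclear genes, and preimplantation embryos start with mitochondria inherited from the oocyte.

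H2afz, which codes for H2A.Z.1, was below all controls of the same stage in each KD library. Its FPKM was 1244, 1236, 905 and 1178 in control and 415, 139 and 112 in KD 2-cell embryos. In morulae it was 1158, 1336, 1511 and 1421 in controls and 30.3, 25.7 and 29.0 after KD, and in blastocysts 2656, 2431, 1945 and 2055 and 64.2, 67.2, 53.2 and 57.6. The drop was partial in 2-cell embryos, where KD replicate 1 kept the highest level of the 3 KD libraries. H2afz passed the test in morulae (−5.41 ± 0.17, adjusted p = 9.71e-08) and blastocysts (−5.19 ± 0.20, adjusted p = 3.63e-08). It did not pass in 2-cell embryos (−2.53 ± 0.38, adjusted p = 0.543), but did so there without KD replicate 1 (adjusted p = 0.000907, adjusted p between 0.000907 and 0.861 over 13 alternatives). H2afv, the gene for H2A.Z.2, gave 111, 118, 96.8 and 113 FPKM in control and 97.6, 85.4 and 83.7 in KD 2-cell embryos, and did not pass there (−0.23 ± 0.16, adjusted p = 0.84). Its values were 97.3, 113, 100.0 and 92.5 against 12.9, 11.01 and 9.90 in morulae and 49.9, 62.0, 54.5 and 63.5 against 19.9, 16.9, 10.6 and 13.9 in blastocysts, with no overlap at either stage. There H2afv fell by 2.93 and 1.86 on the log2 scale. No 2 libraries held identical values, and the 30 pairs of libraries within a group correlated at r = 0.980 to 0.994 across genes. Total FPKM per library lay between 423915 and 722576. The methods state that all experiments but the chromatin sequencing were repeated at least 3 times, without assigning libraries to repeats. Nothing in the labels says that the replicates of a group came from separate injections or mothers, so p-values measure only the spread between these libraries, which may be technical. In such pooled embryos fewer cells of a type and less RNA per cell cannot be told apart.

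As a set, the members made up more of the RNA at each later stage in controls. Their summed FPKM was 2455, 2407, 2444 and 2623 in control 2-cell embryos, 8416, 8720.4, 9886 and 9596 in control morulae and 19997, 16149.5, 16329 and 17293 in control blastocysts. These sums were 0.556, 1.56 and 2.58% of all FPKM in the mean of each group. Among KD embryos the shares were 0.548, 1.53 and 2.07%. Complex III summed to 193, 207, 246 and 264 FPKM in control 2-cell embryos, complex IV to 1149, 1118, 960.0 and 1046 and complex V to 1113, 1083, 1238 and 1313. In control morulae the same sums were 1421, 1566, 1806 and 1853 for complex III, 3272, 3369.9, 3915 and 3764 for complex IV and 3723, 3784, 4165 and 3978 for complex V. Complex III was the lowest of the 3 in each control library of these stages, and complexes IV and V were close to each other. From 2-cell embryos to morulae the mean sum rose 7.30-fold for complex III, 3.35-fold for complex IV and 3.30-fold for complex V, with no overlap between the stages. From morulae to blastocysts it rose 1.94-, 1.96- and 1.84-fold, again with no overlap.

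**Figure D1:**
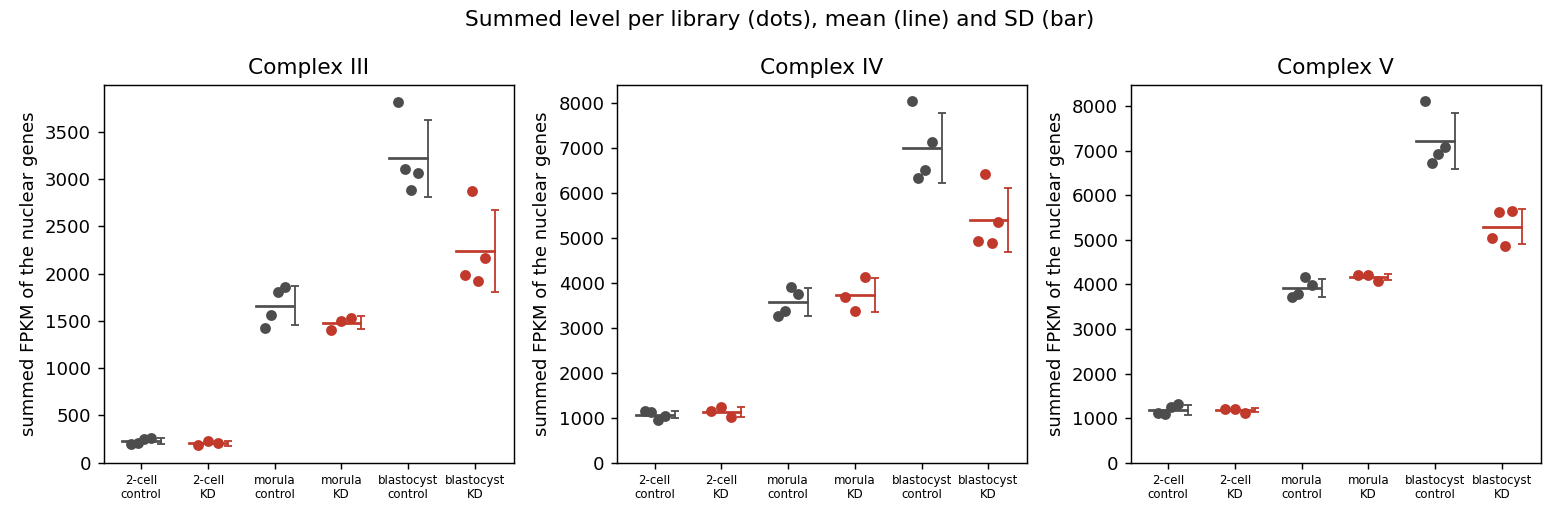
Summed FPKM of the nuclear genes of complexes III, IV and V in each library of the 6 groups, as deposited, with a line at the group mean and a bar for the SD. Sums in control blastocysts lie between 2886 and 3814 for complex III, 6332 and 8058 for complex IV, and 6714 and 8124 for complex V.

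Within each complex the levels of single subunits differed widely, although the assembled enzymes hold most of them in equal number. Averaged over the 22 libraries, which differ in stage, the highest FPKM in complex III were those of Uqcr10 and Uqcrb (383 and 352), small subunits of which Uqcrb lies near a ubiquinone site. The redox-active subunits of the same complex, cytochrome c1 (Cyc1) and the Rieske iron-sulfur protein (Uqcrfs1), averaged 54.6 and 133 FPKM. This order does not hold at each stage: in control 2-cell embryos Uqcrfs1 and Uqcr10 had the highest means (65.5 and 65.3 FPKM) and Uqcrb had 12.8. By the same average complex IV was led by Cox5a (759 FPKM), Cox8a (500.4) and Cox6c (466), and complex V by Atp5g1 (607), Atp5c1 (421) and Atp5b (393). In control 2-cell embryos Cox6c averaged 33.7 FPKM, below Cox4i1 (143) and Cox6a1 (128), and in control blastocysts Atp5h (767) had the highest mean of complex V. At the low end were isoforms known from other tissues. Cox8b averaged 0.0134 FPKM and Cox6a2 0.460, both isoforms of heart and skeletal muscle, and Cox8c averaged 0.540. Cox7a1, another muscle isoform, averaged 6.999 FPKM, against 219 for its counterpart Cox7a2 and 79.5 for Cox7a2l, which helps to join complexes III and IV into supercomplexes. The filter on low values left 43 members in the tests of 2-cell embryos, of morulae and of the stages, and 42 in that of KD blastocysts. Cox8b and Cox8c were tested nowhere, Cox6a2 only in KD against control 2-cell embryos, and Cox6c2 not there.

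Between control 2-cell embryos and control morulae, nearly the whole set rose. Of the 43 members tested, 40 passed as higher and 1 as lower, where 43% of all genes tested passed as higher and 40.3% as lower. Cox6c2, 1 of those 40, lay under 1 FPKM in each 2-cell library and entered the test through the morulae alone. The median log2 difference was 2.05, against 0.10 over all genes. All 9 members of complex III rose (median 2.80), as did 13 of 16 of complex IV (median 1.58, 1 lower) and 18 of 18 of complex V (median 2.14). Uqcrb went from 10.6, 13.3, 13.1 and 14.2 FPKM to 404, 394, 489.5 and 537, the largest rise among the members (5.04 ± 0.18, adjusted p = 3.55e-10). Atp5l, subunit g of the membrane part of complex V, went from 1.15, 4.62, 7.12 and 1.24 to 139.9, 145, 184 and 25.9 FPKM. Control morula replicate 8 was far below the other 3 morula libraries, yet above each 2-cell library (4.70 ± 0.56, adjusted p = 7.77e-06). Cyc1 gave 4.86, 6.64, 11.04 and 9.90 FPKM in 2-cell embryos and 109.7, 95.2, 41.2 and 46.5 in morulae (2.95 ± 0.29, adjusted p = 1.33e-06), and its 4 morula values fell into a higher pair, replicates 1 and 2, and a lower pair, replicates 7 and 8. Among the catalytic subunits of complex V, Atp5a1 (alpha) rose by 2.05 and Atp5b (beta) by 1.54 on the log2 scale. The rise was smallest for Cox7b2 (0.75), Cox7a2 (0.81), Atp5g1 (0.82) and Atp5f1 (0.99) among the members that passed. Atp5f1, subunit b of the peripheral stalk, gave 147, 145, 311 and 322 FPKM in morulae, with replicates 7 and 8 the higher pair, and did not pass without 2-cell control replicate 1 (0.07), 2-cell control replicate 2 (0.0644) or morula control replicate 8 (0.0506) (adjusted p between 0.000105 and 0.0827 over 14 alternatives). Cox7b did not pass (0.48 ± 0.26, adjusted p = 0.104), but did so without 2-cell control replicate 1 (0.0393) or morula control replicate 1 (0.0162) (adjusted p between 0.0162 and 0.697 over 14 alternatives).

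The 1 member that fell was Cox6b2, the testis-type isoform of the subunit that joins the 2 monomers of complex IV. Its FPKM was 50.8, 33.7, 31.8 and 26.7 in control 2-cell embryos and 2.93, 0.942, 2.48 and 1.01 in control morulae, with every morula value below every 2-cell value (−3.72 ± 0.27, adjusted p = 1e-07). Cox6b1, the common isoform, went from 54.8, 67.9, 50.4 and 69.6 to 270.2, 279, 333 and 329 FPKM (2.30 ± 0.19, adjusted p = 3.11e-07). Both isoforms were thus at levels of the same order in 2-cell embryos, and Cox6b1 was far higher in morulae. Cox4i2, an isoform induced by low oxygen in other tissues, gave 4.91, 4.27, 4.46 and 4.40 FPKM in 2-cell embryos and 2.18, 4.14, 2.88 and 3.62 in morulae, and did not pass (−0.41 ± 0.20, adjusted p = 0.0721). With the FPKM as deposited it passed as lower (adjusted p = 0.0467, adjusted p between 0.0467 and 0.269 over 14 alternatives). The 6 mitochondrially encoded subunits of the same complexes all passed as lower in control morulae than in 2-cell embryos, where 40.3% of all genes did, and their mean sum there was 0.640 times that of 2-cell embryos. Among nuclear genes, 42 of 47 genes of complex I and 71 of 78 genes for mitochondrial ribosomal proteins rose over the same step, where 43% of all genes did.

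From control morulae to control blastocysts most members rose again. Of the 43 tested, 30 passed as higher and 1 as lower, where 27.6% of all genes tested passed as higher and 28.8% as lower. The median log2 difference was 0.95, against −0.02 over all genes. Complex III had 6 of 9 members higher, complex IV 10 of 16 and complex V 14 of 18, and the 1 lower member was Cox4i2 of complex IV. Cox7b, a small X-linked subunit of complex IV, went from 23.2, 29.4, 37.6 and 37.9 FPKM in morulae to 247, 139, 181 and 172 in blastocysts, the largest rise (2.40 ± 0.25, adjusted p = 9.44e-06). Atp5g3 codes for one of 3 precursors of the c subunit that forms the proton-carrying ring. It went from 93.3, 93.4, 111 and 97.7 to 516, 347, 338 and 435 FPKM (1.93 ± 0.20, adjusted p = 7.58e-06). Its homologues Atp5g2 and Atp5g1 differed in this step, with 1.45 for Atp5g2 and 0.22 ± 0.24, adjusted p = 0.447 for Atp5g1, which did not pass. In 2-cell embryos Atp5g1 was the most abundant of the 3, at 338, 271, 330.3 and 379.7 FPKM against 22.8, 18.2, 16.4 and 21.1 for Atp5g3 and 3.88, 2.50, 4.18 and 3.44 for Atp5g2. Cox5b, a nuclear subunit of the matrix side of complex IV, rose by 1.75, and Uqcrh, the acidic hinge protein that helps cytochrome c1 meet cytochrome c, by 1.59. Cox4i2 went from 2.18, 4.14, 2.88 and 3.62 to 0.0574, 0.238, 0.278 and 0.254 FPKM, all blastocyst values below all morula values (−1.82 ± 0.18, adjusted p = 7.24e-06). Each blastocyst value was under 1 FPKM, so the gene entered the test only through the morulae, and without the filter its adjusted p was 0.000444 (adjusted p between 3.98e-06 and 0.000444 over 13 alternatives). Cox4i1, its common isoform, went from 447, 474, 466 and 484 to 728, 672, 648 and 677 FPKM (0.45 ± 0.15, adjusted p = 0.0215), and did not pass without morula control replicate 7 (0.0501) (adjusted p between 0.000733 and 0.0501 over 13 alternatives). Cyc1 (−0.22), Atp5d (0.06) and Atp5b (0.14) were among the 12 members that did not pass. Over this step 36 of 47 genes of complex I rose, as did 3 of 6 mitochondrially encoded subunits and 27 of 78 genes for mitochondrial ribosomal proteins, of which 10 fell, where 27.6% of all genes rose and 28.8% fell.

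In KD against control 2-cell embryos no member passed, and none of all 12160 genes did (0% higher and 0% lower). The lowest adjusted p was 0.543 by limma, and 701 genes had an unadjusted p under 0.05. H2afz, the target of the KD, did not pass here either, so the absence of calls does not show that members were unchanged. Over all genes, 1 passed as lower without control replicate 2 and 3 without KD replicate 1. Median log2 fold changes were −0.08 for complex III, 0.08 for complex IV and 0.02 for complex V, which became −0.04 for complex V with the FPKM as deposited. The sums of the 3 KD libraries were 182, 229 and 203 FPKM for complex III, 1144, 1236 and 1006 for complex IV and 1201, 1209 and 1119.5 for complex V. They overlapped the control sums in each complex. Single members moved apart between libraries of 1 group here: Cox6c gave 14.9, 58.9, 48.4 and 12.7 FPKM in controls and 69.7, 16.4 and 42.3 after KD. The members with the lowest and highest fold changes were Atp5d (3.16, 2.55, 5.06 and 6.49 FPKM in controls, 0.881, 2.60 and 2.48 after KD, −0.78 ± 0.30, adjusted p = 0.828) and Atp5e (4.91, 9.24, 5.84 and 6.15 and 7.27, 12.2 and 10.4, 0.60 ± 0.23, adjusted p = 0.828). Both are subunits of the central stalk of complex V. Atp5d had values in overlap between the groups, and so did Atp5e.

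In KD morulae 4 of the 43 members tested passed, all of them in complex IV. Cox7b2 and Cox7b were lower, and Cox6b2 and Cox4i2 were higher. Over all genes 4.23% passed as higher and 9.04% as lower, and 2 of 43 members in each direction (4.65%) did not stand out from that. All KD libraries lay below all controls in 7 of the 43 members, against 22.9% of all genes. They lay above all controls in 6, against 6.7% of all genes. The libraries of morulae grouped by replicate number. Deviations from the group means correlated at r = 0.0944 to 0.347 in the 6 pairs of a KD and a control library that both had low numbers (1 and 2) or both higher ones, and at −0.278 to −0.0946 in the 6 other pairs. What sets these numbers apart is not stated in the labels and was not tested, but fitting their range changed the counts of members. With this range of numbers as a covariate 7 members were higher (16.3%), namely also Atp5f1, Atp5g1, Cox4i1, Cox5a and Cox8a, where 7.07% of all genes were. Without the filter 0 members were higher and 1 lower (0.392% and 0.86% of all genes), and with FPKM as deposited 5 were lower (11.6%, against 14.1% of all genes). Cox7b2 (ENSMUSG00000049387.10, chr5:71442824-71548205 in GRCm38, reverse strand) is an isoform of Cox7b known from testis. It gave 5.40, 3.73, 7.21 and 6.79 FPKM in control and 0.922, 0.721 and 0.259 in KD morulae, with no overlap (−1.97 ± 0.24, adjusted p = 0.00161). As each KD value was under 1 FPKM, the gene entered the test only through the controls, and without the filter its adjusted p was 0.0332 (adjusted p between 4.17e-06 and 0.0332 over 13 alternatives). Cox7b (ENSMUSG00000031231.4, chrX:106015700-106022450, forward strand) gave 23.2, 29.4, 37.6 and 37.9 FPKM in control and 16.2, 13.9 and 10.6 in KD morulae. Its groups did not overlap either (−1.06 ± 0.23, adjusted p = 0.0169), but it did not pass without morula KD replicate 2 (0.0565) (adjusted p between 0.00455 and 0.103 over 13 alternatives). Cox6b2 (ENSMUSG00000051811.14, chr7:4751792-4753094, reverse strand) gave 2.93, 0.942, 2.48 and 1.01 FPKM in controls and 5.62, 5.75 and 2.52 after KD. KD replicate 6 lay among the controls (1.09 ± 0.29, adjusted p = 0.0334), and the gene did not pass without morula control replicate 2 (0.0776), morula control replicate 8 (0.0788), morula KD replicate 1 (0.12) or morula KD replicate 2 (0.135) (adjusted p between 1.49e-05 and 0.169 over 13 alternatives). Cox4i2 (ENSMUSG00000009876.13, chr2:152754173-152765037, forward strand) gave 2.18, 4.14, 2.88 and 3.62 FPKM in controls and 4.89, 7.78 and 5.26 after KD, with all KD values above all control values (0.82 ± 0.23, adjusted p = 0.0418). It did not pass without morula control replicate 1 (0.0607), morula control replicate 7 (0.0872), morula control replicate 8 (0.056), morula KD replicate 1 (0.0615), morula KD replicate 2 (0.167) or morula KD replicate 6 (0.0719) (adjusted p between 0.0055 and 0.167 over 13 alternatives).

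No member of complex III or V passed in KD morulae in the main fit on scaled values. With the FPKM as deposited 2 members of complex III passed as lower, and in complex V 1 passed as higher and 1 as lower. Uqcrc2, a core protein of complex III, gave 105, 115, 126 and 134 FPKM in controls and 74.7, 69.3 and 84.3 after KD, with no overlap, and did not pass (−0.53 ± 0.17, adjusted p = 0.0686). It passed without morula control replicate 1 (0.0174) and with the FPKM as deposited (adjusted p between 0.00876 and 0.223 over 13 alternatives). Atp5g1 gave 404, 594, 659.6 and 717 FPKM in controls and 876, 828 and 914 after KD (0.71 ± 0.23, adjusted p = 0.0675). All its KD values were above all control values, and it passed without morula control replicate 1 (0.0291) (adjusted p between 0.000311 and 0.249 over 13 alternatives). Among the catalytic subunits, Atp5a1 had −0.32 and Atp5b −0.09 on the log2 scale, neither of which passed. Cox6c gave 573, 131 and 688 FPKM in KD morulae, where replicate 2 was far below the others, and 517, 529, 670.1 and 532 in controls (−0.46 ± 0.46, adjusted p = 0.535). The median log2 fold changes were 0.05 for complex III, 0.16 for complex IV and 0.13 for complex V with scaled values, and −0.07, 0.04 and 0.00 with the FPKM as deposited, so the direction for complex III rested on the scaling and the other 2 came close to 0. Leaving out the scaling shifted the median over all genes by −0.10 in this comparison. The summed FPKM of KD morulae was 1406, 1503 and 1535 for complex III, 3694, 3368 and 4131 for complex IV and 4203, 4207 and 4076 for complex V. These sums overlapped the control sums for complexes III and IV. For complex V the KD sums lay in or just above the range of the controls. The count of members that passed as higher was 1 without control replicate 2, control replicate 7 or KD replicate 6, and 0 without control replicate 8, KD replicate 1 or KD replicate 2. Of all genes 465 passed as higher and 993 as lower, and these counts were 259 and 651 without control replicate 7, 268 and 587 without control replicate 8, 164 and 415 without KD replicate 1, and 140 and 411 without KD replicate 2. Without control replicate 2, 294 passed as higher.

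In KD blastocysts 16 of the 42 members tested passed as lower than in controls and none as higher, against 19.8% of all genes that passed as lower and 16.7% that passed as higher. They were 3 of 9 in complex III, 4 of 15 in complex IV and 9 of 18 in complex V. The share in complex IV (26.7%) was near that of all genes, and without Cox7b2, which entered the test only through the controls, it was 3 of 14 (21.4%). Of the 42 members 6 were lower DEGs (14.3%), against 7.69% of all genes. Among genes that passed as lower, DEGs were 38.8%, and 37.5% among the 16 members, so that the 16 did not stand out in size. Of the 42, 20 had all KD libraries below all control libraries, against 20% of all genes. Log2 fold changes were negative for 36 of 42 members, with a median of −0.47 for complex III, −0.35 for complex IV and −0.65 for complex V, against 0.00 over all genes. Without the filter 8 of 46 members passed as lower (17.4%), where 5.98% of all genes did. The calls of the 16 members named below thus did not all hold without it. Where no range over the alternatives is given below, a call is not shown to hold without the filter. With the FPKM as deposited 25 did (59.5%), where 20.1% of all genes did, and the medians were −0.48, −0.35 and −0.66.

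In complex III the core protein Uqcrc2 and the Rieske protein Uqcrfs1, one of its electron carriers, fell in KD blastocysts, and so did the hinge protein Uqcrh. Uqcrc2 (ENSMUSG00000030884.12, chr7:120635176-120659524, forward strand) gave 289, 274, 256 and 257 FPKM in control and 117, 163, 113 and 152 in KD blastocysts (−0.99 ± 0.19, adjusted p = 0.00175). Uqcrfs1 (ENSMUSG00000038462.3, chr13:30540308-30545362, reverse strand) gave 274, 285, 270.3 and 266 FPKM and 140.1, 162, 149 and 143 (−0.87 ± 0.15, adjusted p = 0.000913). The controls of Uqcrfs1 lay within a narrow band, and its 4 KD values were all far below it. Uqcrh (ENSMUSG00000063882.12, chr4:116066965-116075071, reverse strand) gave 530.1, 391, 372 and 443 FPKM in controls and 105, 309, 205 and 241 after KD (−1.09 ± 0.29, adjusted p = 0.0109), with KD replicate 1 lowest and KD replicate 4 nearest to the controls. The other core protein, Uqcrc1, ran from low to high within each group, at 119, 305, 230.1 and 137 FPKM in controls and 274, 257, 133 and 134 after KD (0.04 ± 0.33, adjusted p = 0.94). Cyc1, the heme protein of the complex, gave 39.8, 81.6, 74.8 and 56.8 FPKM in controls and 84.5, 61.0, 115 and 129 after KD. Its KD values were mostly the higher ones, the groups overlapped, and it did not pass (0.62 ± 0.23, adjusted p = 0.055). It passed as higher without blastocyst control replicate 4 (0.0431) or blastocyst KD replicate 4 (0.0161) (adjusted p between 0.0161 and 0.178 over 14 alternatives). Small subunits Uqcr11, Uqcrb, Uqcr10 and Uqcrq had log2 fold changes of −0.59, −0.47, −0.40 and −0.37, and none of the 4 passed. Without KD replicate 4, Uqcr11 (adjusted p = 0.0221), Uqcrb (0.0472) and Uqcrq (0.0481) passed as lower, and Uqcr11 also did so without control replicate 5 (0.0428). Over its alternatives Uqcr11 had an adjusted p between 0.0211 and 0.195, Uqcrb between 0.0442 and 0.275, and Uqcrq between 0.0481 and 0.336.

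In complex IV Cox7b, Cox7a2 and Cox5b were lower in KD blastocysts, and so was Cox7b2, which was tested only because its controls passed the filter. Cox7b2 gave 5.49, 3.60, 4.76 and 6.18 FPKM in control and 0.283, 0.498, 0.349 and 0.107 in KD blastocysts (−2.17 ± 0.19, adjusted p = 1.22e-05), with each KD value under 0.5 FPKM, and without the filter its adjusted p was 0.00102 (adjusted p between 1.1e-05 and 0.00102 over 14 alternatives). Cox7b gave 247, 139, 181 and 172 FPKM in controls and 62.4, 98.0, 78.6 and 73.9 after KD (−1.21 ± 0.22, adjusted p = 0.0015), again with no overlap. Cox7a2, the common isoform of its subunit, gave 535, 401, 398 and 449 FPKM in controls and 223, 353, 229 and 264 after KD (−0.74 ± 0.21, adjusted p = 0.0172). Cox5b gave 589.7, 465, 418 and 454 FPKM in controls and 230.4, 377, 269 and 285 after KD (−0.73 ± 0.21, adjusted p = 0.0174). In both genes KD replicate 4 came nearest to the controls without reaching them, and Cox5b did not pass without blastocyst KD replicate 1 (0.0521) (adjusted p between 0.00531 and 0.0768 over 14 alternatives). Cox4i1, the largest nuclear-coded subunit, gave 728, 672, 648 and 677 FPKM in controls and 601, 662, 574 and 638 after KD, with overlap (−0.13 ± 0.16, adjusted p = 0.564). Cox6b2, which was higher in KD morulae, gave 6.74, 6.45, 6.02 and 7.89 and 7.48, 8.61, 4.96 and 6.48 FPKM here (0.01 ± 0.21, adjusted p = 0.971). Cox4i2 was below the filter in this comparison, with 0.0574, 0.238, 0.278 and 0.254 FPKM in controls and 1.46, 0.7999, 0.814 and 1.01 after KD. All 4 KD values lay above all 4 control values, and without the filter its log2 fold change was 0.74 (adjusted p = 0.0187). Cox7c and Cox6b1 did not pass (−0.50 and −0.49), but did so without blastocyst KD replicate 4 (adjusted p = 0.0436 and 0.0263). Their adjusted p over the alternatives lay between 0.0432 and 0.278 for Cox7c and between 0.0263 and 0.246 for Cox6b1.

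**Figure D2:**
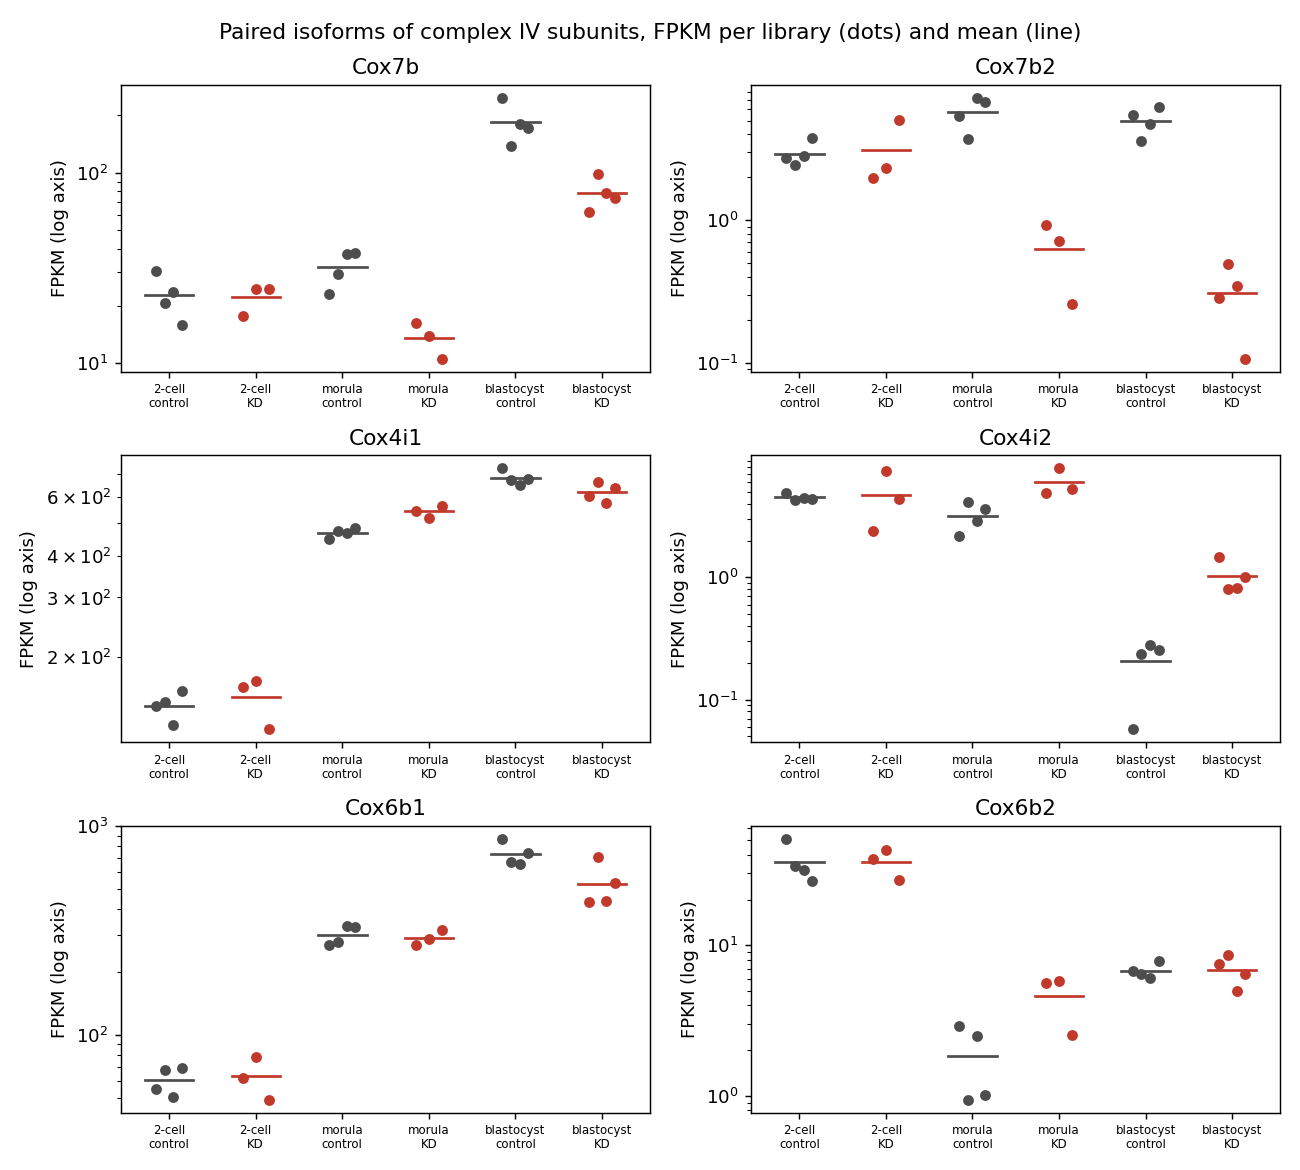
FPKM of Cox7b and Cox7b2, Cox4i1 and Cox4i2, and Cox6b1 and Cox6b2 in each library of the 6 groups, as deposited, on a log axis. Cox7b2 lies at 3.60 to 6.18 FPKM in control blastocysts and at 0.107 to 0.498 in KD blastocysts.

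In complex V members of the membrane part and of both stalks fell in KD blastocysts, where 19.8% of all genes were lower. Of 5 small membrane subunits 4 passed as lower, of 3 genes for the c ring 2, of 5 genes of the peripheral stalk 2 and of 3 genes of the central stalk 1, while neither of the 2 genes of the catalytic head did. The 2 of the peripheral stalk are the overlapping identifiers of 1 symbol, Atp5o, which share sequence. These counts are few and their difference between the parts was not tested. Atp5mpl (ENSMUSG00000021290.6, chr12:111961375-111966977, reverse strand), a small proteolipid bound to the membrane part, gave 570.1, 384, 409 and 512 FPKM in controls and 263, 140.1, 95.8 and 303 after KD (−1.34 ± 0.35, adjusted p = 0.0101). Atp5l (ENSMUSG00000038717.8, chr9:44912557-44920742, reverse strand) gave 463, 334, 336 and 402 FPKM in controls and 59.1, 286, 192 and 207 after KD (−1.22 ± 0.38, adjusted p = 0.0235). KD replicate 1 was the lowest of its KD libraries by far, and the gene did not pass without blastocyst control replicate 1 (0.0611) (adjusted p between 0.00644 and 0.141 over 14 alternatives). Atp5k (ENSMUSG00000050856.16, chr5:108433244-108434448, reverse strand), subunit e, which with subunit g holds 2 enzymes together as a dimer, gave 144, 171, 153 and 195 FPKM in controls and 77.3, 121, 76.5 and 79.0 after KD (−0.91 ± 0.20, adjusted p = 0.00369). Its KD values were below all controls, with KD replicate 4 the highest. Atp5j2, subunit f, gave 232, 169.9, 123 and 187 FPKM in controls and 86.8, 137, 94.6 and 105 after KD, where KD replicate 4 exceeded control replicate 5. It passed (−0.72 ± 0.24, adjusted p = 0.0352), but not without blastocyst control replicate 1 (0.0853), blastocyst control replicate 4 (0.0596), blastocyst control replicate 6 (0.0749), blastocyst KD replicate 1 (0.0864), blastocyst KD replicate 5 (0.0895) or blastocyst KD replicate 6 (0.0714) (adjusted p between 0.00901 and 0.142 over 14 alternatives). Atp5md, the fifth of the small membrane subunits, did not pass (−0.67 ± 0.27, adjusted p = 0.0719), but did so without blastocyst control replicate 5 (0.0483) or blastocyst KD replicate 4 (0.0161) (adjusted p between 0.0161 and 0.232 over 14 alternatives).

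The c ring and the stalks of complex V held both members that fell and members that did not pass. Atp5g3 (ENSMUSG00000018770.9, chr2:73908447-73911326, reverse strand) gave 516, 347, 338 and 435 FPKM in controls and 185, 250.0, 221 and 199 after KD (−0.91 ± 0.20, adjusted p = 0.00453). Atp5g2 gave 141, 141, 162 and 171 FPKM in controls and 78.5, 99.9, 109 and 106 after KD (−0.64 ± 0.15, adjusted p = 0.00544), and Atp5g1, the most abundant of the 3, 885, 703, 687 and 631 and 946, 898, 468 and 618 (−0.03 ± 0.27, adjusted p = 0.952). The groups of Atp5g3 and Atp5g2 did not overlap, and those of Atp5g1 did. Atp5e (ENSMUSG00000016252.7, chr2:174461072-174464105, reverse strand), the epsilon subunit of the central stalk, gave 181, 137, 179.6 and 158 FPKM in controls and 60.6, 113, 61.1 and 71.1 after KD (−1.12 ± 0.23, adjusted p = 0.00281). Its partner Atp5d, the delta subunit, had its lowest value in control replicate 1 and its highest in KD replicate 6, at 72.4, 114, 194 and 109.6 FPKM in controls and 141, 129, 217 and 266 after KD. It did not pass (0.65 ± 0.26, adjusted p = 0.0697), but passed as higher without blastocyst control replicate 5 (0.0161) or blastocyst KD replicate 4 (0.0427) (adjusted p between 0.0161 and 0.224 over 14 alternatives). The 2 identifiers of Atp5o, the peripheral stalk protein that binds the head, fell by 0.66 (ENSMUSG00000022956.11, chr16:91925214-91931687) and 0.68 (ENSMUSG00000116933.1, chr16:91684398-91926982) on the log2 scale. Atp5h did not pass (−0.51 ± 0.21, adjusted p = 0.0706), but did so without blastocyst control replicate 4 (0.0472) (adjusted p between 0.02 and 0.183 over 14 alternatives). The catalytic subunits had values in overlap, with Atp5a1 at 200.4, 302, 325 and 258 FPKM in controls and 202, 231, 289 and 266 after KD (−0.12 ± 0.16, adjusted p = 0.595). Atp5b gave 404, 564, 672 and 532 and 458, 538, 749 and 665 (0.15 ± 0.17, adjusted p = 0.509).

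The sums per complex in KD blastocysts were lower as well. Complex III summed to 3814, 3104, 2886 and 3068 FPKM in controls and 1981, 2875, 1926 and 2169 after KD, and the highest KD library, replicate 4, was just below the lowest control. For complex IV the sums were 8058, 6332, 6508 and 7149 and 4945, 6428, 4885 and 5359, where KD replicate 4 lay above control replicate 4. Complex V gave 8124, 6714, 6935 and 7076 and 5049, 5633, 4868 and 5638, with every KD sum below every control sum. Mean sums were 3218 ± 409 (SD, n = 4) against 2238 ± 437 (n = 4) for complex III, 7012 ± 781 against 5404 ± 714 for complex IV and 7212 ± 626 against 5297 ± 398 for complex V. KD was thus 0.695, 0.771 and 0.735 times control. For the genes of complex I the same ratio was 0.656, with 29 of 47 lower, where 19.8% of all genes were lower and 16.7% higher. It was 0.700 for the mitochondrially encoded subunits of complexes III, IV and V, with 3 of 6 lower, and 0.774 for the mitochondrial ribosomal proteins, with 37 of 78 lower and 5 higher. No test was run on the sums.

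Whether the KD effect itself differed between the stages was tested on the morula and blastocyst libraries together. Of 43 members 6 passed, and in each the difference of KD from control was more negative in blastocysts than in morulae, where 6.32% of all genes passed in that direction and 5.43% in the other. Without the filter only 1 of 46 members passed in that direction (2.17%). The medians of this difference were −0.50 for complex III, −0.60 for complex IV and −0.74 for complex V, against −0.01 over all genes. With the FPKM as deposited the medians were −0.34, −0.45 and −0.58, and the median over all genes shifted by 0.119. Uqcrh, Atp5k, Atp5g3, Cox8a and both identifiers of Atp5o passed. Uqcrh gave 120.5, 131, 196 and 104 FPKM in control and 166, 177 and 124 in KD morulae, where its groups overlapped, unlike in blastocysts (−1.45 ± 0.40, adjusted p = 0.0274). It did not pass without morula control replicate 1 (0.0529), morula KD replicate 1 (0.0627), morula KD replicate 2 (0.0752) or blastocyst control replicate 1 (0.058) (adjusted p between 0.00792 and 0.117 over 21 alternatives). Atp5g3 gave 93.3, 93.4, 111 and 97.7 FPKM in control and 102, 89.3 and 108 in KD morulae, also in overlap there, and passed whichever library was left out (−1.09 ± 0.26, adjusted p = 0.0134). Atp5k gave 57.0, 82.8, 91.3 and 80.0 and 88.4, 96.6 and 54.7 FPKM in morulae (−1.09 ± 0.32, adjusted p = 0.0373), and did not pass without morula control replicate 1 (0.0651), morula KD replicate 1 (0.0917), morula KD replicate 2 (0.112), blastocyst control replicate 1 (0.0585), blastocyst control replicate 4 (0.062), blastocyst control replicate 6 (0.0695), blastocyst KD replicate 1 (0.0608), blastocyst KD replicate 5 (0.0695) or blastocyst KD replicate 6 (0.0694) (adjusted p between 0.0119 and 0.127 over 21 alternatives). Atp5o ENSMUSG00000022956.11 (−0.95 ± 0.25, adjusted p = 0.0199) did not pass without morula KD replicate 1 (0.0621) or morula KD replicate 2 (0.0503) (adjusted p between 0.0132 and 0.0621 over 21 alternatives). Atp5o ENSMUSG00000116933.1 (−0.75 ± 0.23, adjusted p = 0.0414) did not pass without morula control replicate 1 (0.0747), morula control replicate 2 (0.0643), morula control replicate 7 (0.0513), morula KD replicate 1 (0.0723), morula KD replicate 2 (0.0861), morula KD replicate 6 (0.0892), blastocyst control replicate 1 (0.0766), blastocyst control replicate 4 (0.0712), blastocyst KD replicate 1 (0.0588), blastocyst KD replicate 5 (0.0652) or blastocyst KD replicate 6 (0.0575) (adjusted p between 0.0239 and 0.0924 over 21 alternatives). Cox8a, a small subunit of complex IV, gave 471, 432, 468 and 475 FPKM in control and 502, 544 and 542 in KD morulae, with all KD values above all controls. In blastocysts it gave 913, 745, 839.9 and 917 and 548, 819.6, 662 and 662, with overlap (−0.71 ± 0.22, adjusted p = 0.048). It did not pass without morula control replicate 1 (0.0798), morula control replicate 2 (0.0841), morula control replicate 7 (0.0629), morula KD replicate 1 (0.065), morula KD replicate 2 (0.108), morula KD replicate 6 (0.104), blastocyst control replicate 1 (0.0893), blastocyst control replicate 6 (0.0829), blastocyst KD replicate 1 (0.0861), blastocyst KD replicate 5 (0.0762) or blastocyst KD replicate 6 (0.0799) (adjusted p between 0.0151 and 0.13 over 21 alternatives). The number that passed was 3 without morula control replicate 1, 1 without morula KD replicate 1 and also 1 without morula KD replicate 2. It was 2 without blastocyst control replicate 1, 10 without blastocyst control replicate 5, 12 without blastocyst KD replicate 4, and 3 without blastocyst KD replicate 1, 5 or 6. Over all genes 691 passed in the other direction, but 413 without morula KD replicate 1 and 436 without morula KD replicate 2. For Cox7b and Cox7b2, lower at both stages, the difference was −0.19 and −0.16 and did not pass. In this test, against the 6.32% of all genes, 4 of 48 genes of complex I, 3 of 6 mitochondrially encoded subunits and 1 of 78 genes for mitochondrial ribosomal proteins passed, all more negative in blastocysts.

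Some genes that serve the same enzymes without being subunits of them were lower in KD blastocysts, where 19.8% of all genes passed as lower and 16.7% as higher. Of the assembly factors of complex III 4 of 6 fell, among them Lyrm7, the chaperone of the Rieske protein, at 8.70, 6.87, 8.34 and 5.29 FPKM in controls and 2.39, 2.704, 1.45 and 1.64 after KD (−1.43 ± 0.23, adjusted p = 0.000542). Uqcc2, needed for the synthesis of cytochrome b, gave 70.9, 63.1, 60.7 and 63.4 FPKM and 27.7, 27.4, 22.8 and 26.4 (−1.27 ± 0.17, adjusted p = 0.000213). The groups of both genes lay well apart. Bcs1l, which inserts the Rieske protein, fell by 0.99 on the log2 scale, and Ttc19 by 0.62. Ttc19 did not pass without blastocyst control replicate 1 (0.0745), blastocyst control replicate 5 (0.0731), blastocyst KD replicate 5 (0.0766) or blastocyst KD replicate 6 (0.0797) (adjusted p between 0.0231 and 0.0797 over 14 alternatives). Of 23 assembly factors of complex IV, 6 were lower (26.1%) and 2 higher (8.70%) in KD blastocysts, near or below the shares of all genes, and the lower DEGs were Pet100 (−1.33 ± 0.24, adjusted p = 0.00143), Cmc1 (−1.27 ± 0.20, adjusted p = 0.00053) and Coa3 (−1.01 ± 0.21, adjusted p = 0.00325). The 2 that rose were Sco2, a copper chaperone, at 4.41, 6.18, 3.20 and 4.26 FPKM in controls and 10.8, 10.6, 7.05 and 10.96 after KD (0.99 ± 0.23, adjusted p = 0.00557), and Taco1 (0.50 ± 0.18, adjusted p = 0.0463). Taco1 did not pass without blastocyst control replicate 1 (0.119), blastocyst control replicate 4 (0.0762), blastocyst control replicate 6 (0.0926), blastocyst KD replicate 1 (0.115), blastocyst KD replicate 4 (0.0707) or blastocyst KD replicate 6 (0.0884) (adjusted p between 0.0369 and 0.119 over 14 alternatives). Of 6 genes for the assembly and inhibition of complex V, 3 were lower, namely Tmem242 (−0.99), Fmc1 (−0.79) and Atpif1 (−0.91 ± 0.28, adjusted p = 0.0224), the inhibitor of ATP hydrolysis. Atpif1 did not pass without blastocyst control replicate 4 (0.0525), blastocyst control replicate 6 (0.05), blastocyst KD replicate 5 (0.0629) or blastocyst KD replicate 6 (0.0637) (adjusted p between 0.00493 and 0.119 over 14 alternatives). Genes of these lists with an absolute log2 fold change under 1 are named because their counts are small, after their values were seen.

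Complex II and cytochrome c, which pass electrons towards or between these complexes, have few genes. Of 4 genes of complex II, 3 were lower in KD blastocysts, against 19.8% of all genes. Sdhd, a membrane anchor of complex II, gave 209.6, 211, 132 and 148 FPKM in controls and 41.4, 48.1, 32.7 and 32.5 after KD (−2.13 ± 0.24, adjusted p = 5.92e-05), and in morulae 32.3, 38.3, 40.7 and 45.3 and 15.8, 13.9 and 14.9 (−1.21 ± 0.18, adjusted p = 0.00436). At neither stage did its groups overlap. Sdhc, the other anchor, fell by 0.98 and Sdhb by 0.66 on the log2 scale in blastocysts, where Sdhb did not pass without blastocyst control replicate 1 (0.076), blastocyst control replicate 4 (0.079), blastocyst KD replicate 5 (0.0627) or blastocyst KD replicate 6 (0.0587) (adjusted p between 0.00953 and 0.122 over 14 alternatives). In KD morulae 3 of 4 were lower too, against 9.04% of all genes: Sdhd, Sdha (−0.95 ± 0.14, adjusted p = 0.00415) and Sdhc (−0.71 ± 0.14, adjusted p = 0.012), the last of which did not pass without morula KD replicate 2 (0.0528) (adjusted p between 0.0066 and 0.0528 over 13 alternatives). Cyct, the testis form of cytochrome c, gave 74.2, 47.3, 40.2 and 37.6 FPKM in control and 18.1, 16.2, 8.17 and 13.3 in KD blastocysts (−1.76 ± 0.31, adjusted p = 0.00104). Cycs, the common form, gave 241, 173, 137 and 154 and 115, 148, 84.5 and 115 FPKM and did not pass (−0.59 ± 0.26, adjusted p = 0.0919), and KD replicate 4 lay among its controls. Of 3 carriers that bring phosphate and adenine nucleotides to complex V, only Slc25a4 passed in blastocysts, at 346, 438, 383 and 338 FPKM in controls and 199, 232, 179 and 180.3 after KD (−0.92 ± 0.17, adjusted p = 0.00155). None of the 3 passed in morulae.

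Assembly factors in KD morulae were lower for 1 of 5 in complex III, 5 of 23 in complex IV and 1 of 6 in complex V, and none was higher. Of all genes 9.04% were lower and 4.23% higher, and the 2 counts of 1 are too small to set against that. Coa5 gave 11.3, 8.87, 7.34 and 6.30 FPKM in control and 2.94, 3.25 and 2.91 in KD morulae (−1.09 ± 0.17, adjusted p = 0.00464), and Coa4 24.5, 29.2, 29.3 and 29.6 and 14.0, 12.3 and 10.9 (adjusted p = 0.00591). In both genes all KD values were below all controls. The others in complex IV were Coa3 (−0.96), Surf1 (−0.61) and Pet100 (−0.73). Surf1 did not pass without morula control replicate 7 (0.0665), morula control replicate 8 (0.0624), morula KD replicate 1 (0.0678) or morula KD replicate 2 (0.112) (adjusted p between 0.00563 and 0.137 over 13 alternatives), nor did Pet100 without morula control replicate 2 (0.0807), morula control replicate 7 (0.115), morula control replicate 8 (0.0934), morula KD replicate 1 (0.174) or morula KD replicate 6 (0.13) (adjusted p between 0.0235 and 0.211 over 13 alternatives). Bcs1l fell by 0.75 on the log2 scale, but did not pass without morula control replicate 2 (0.0592), morula control replicate 7 (0.0512), morula control replicate 8 (0.0635), morula KD replicate 1 (0.0968), morula KD replicate 2 (0.0659) or morula KD replicate 6 (0.0774) (adjusted p between 0.0116 and 0.144 over 13 alternatives). Tmem242 fell by 0.73, but did not pass without morula control replicate 2 (0.0502), morula control replicate 7 (0.0758), morula control replicate 8 (0.0786), morula KD replicate 1 (0.127) or morula KD replicate 2 (0.0885) (adjusted p between 0.00761 and 0.127 over 13 alternatives). Among neighbouring sets, 5 of 47 genes of complex I (10.6%, close to the share of all genes) and 16 of 78 genes for mitochondrial ribosomal proteins were lower in KD morulae, and 1 of 6 mitochondrially encoded subunits was higher. Of 12 regulators of nuclear genes for mitochondria 9 were tested, and 1 was higher in KD morulae and 3 in KD blastocysts, where 4.23% and 16.7% of all genes were. Polrmt, 1 of those 3, reached the filter only with the KD libraries, where it is high. Tfb2m, a mitochondrial transcription factor, gave 33.2, 31.8, 30.7 and 32.1 FPKM in control and 53.2, 53.6 and 51.1 in KD morulae (0.83 ± 0.13, adjusted p = 0.00523), and 10.996, 15.2, 16.2 and 15.3 and 29.7, 25.3, 29.4 and 27.7 in blastocysts (0.93 ± 0.15, adjusted p = 0.00065). It lay above all controls in each KD library of both stages. Pprc1 (0.79) and Polrmt (0.60), the mitochondrial RNA polymerase, were the others in blastocysts. Without the filter Polrmt passed (adjusted p = 0.0201, adjusted p between 0.00873 and 0.0336 over 14 alternatives) and Pprc1 did not (adjusted p = 0.0612, adjusted p between 0.00881 and 0.0612 over 14 alternatives). Nrf1 (0.00 ± 0.23, adjusted p = 0.991), Gabpa (0.31 ± 0.16, adjusted p = 0.162) and Tfam (−0.09 ± 0.15, adjusted p = 0.691), well-known activators of respiratory genes and of the mitochondrial genome, did not pass there. Results for Nrf1, Gabpa, Tfam and Cycs were not repeated under the alternatives.

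Markers of the cell types of the embryo were compared between the same libraries. The 5 trophectoderm markers, of which Krt18 was the most abundant, summed to 989, 1466, 1303 and 981 FPKM in control and 581, 737, 774 and 597 in KD blastocysts, with no overlap. Of these 5 genes 1 was lower, Krt18 (−1.02 ± 0.18, adjusted p = 0.00126), and 1 higher, Tfap2c (0.96 ± 0.23, adjusted p = 0.00674), which is close to the 19.8% and 16.7% of all genes. The 3 markers of the inner cell mass, led by Nanog, summed to 109, 132, 218 and 131 and 135, 150.0, 274 and 194 FPKM, and none of the 3 passed. For the 4 markers of primitive endoderm, led by Gata6, the sums were 10.2, 11.1, 10.2 and 20.3 and 12.4, 10.2, 37.1 and 20.2, and the 1 tested did not pass. The 5 markers of 2-cell embryos, led by Tcstv3, summed to 1.34, 2.54, 0.540 and 1.88 and 8.10, 17.5, 3.43 and 25.3 FPKM, with no overlap. Of these, Tcstv3 (2.01 ± 0.56, adjusted p = 0.0145) and Zfp352 (1.56 ± 0.29, adjusted p = 0.00157) reached the filter only with the KD libraries, where they are high. Without the filter Zfp352 passed (adjusted p = 0.0265, adjusted p between 0.000254 and 0.0265 over 14 alternatives) and Tcstv3 did not (adjusted p = 0.115, adjusted p between 0.000419 and 0.115 over 14 alternatives). The 4 oocyte markers summed to 1.71, 2.05, 1.72 and 2.17 and 4.76, 3.38, 1.94 and 2.20 FPKM, with Zp3 the highest in each of these libraries but KD replicate 5, and 0 of 1 passed. In morulae the inner cell mass markers summed to 119, 130.3, 137 and 165 FPKM in controls and 39.3, 31.4 and 49.0 after KD, and 1 of 2 was lower, Nanog (−2.23 ± 0.37, adjusted p = 0.00647), where 9.04% of all genes were. Trophectoderm markers summed to 129, 107, 129 and 145 and 94.3, 82.7 and 116 there, and 0 of 4 passed. Of 6 markers of cumulus or granulosa cells, Ptx3 and Fshr were at 0 in all 22 libraries, and no value of the other 4 exceeded 0.1 FPKM. What part the makeup of the embryos had in the results on the 3 complexes was not tested.

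Some members share sequence with other genes, so their values are uncertain. Of their 75-base stretches, 83.8% in Atp5o ENSMUSG00000116933.1, 34.2% in Atp5o ENSMUSG00000022956.11, 35.8% in Atp5g2 and 45.2% in Cox6c2 occur in another annotated gene. The 2 identifiers of Atp5o overlap on the same strand, and Cox6c2 is annotated as a processed pseudogene. Atp5j overlaps exons of Gabpa, and Atp5f1 overlaps Wdr77, both on the opposite strand, and reads of such pairs cannot be told apart without strand. Across the 42 members tested in blastocysts, the log2 fold change of KD had a Pearson r of 0.400 and a Spearman rho of 0.324 with the GC content of the longest transcript. The same values were 0.162 and 0.179 across 11814 genes, and genes of the same libraries are not independent replicates. With the log2 length of that transcript r was 0.171 and rho 0.162 for the members, and −0.0249 and 0.015 for all genes.

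The promoters of the members were searched for the motifs of 3 known regulators of respiratory genes. RefSeq windows of 250 bases before to 50 after the start (GRCm38.p6) were at hand for 32 of the 45 symbols, in 35 promoters. On either strand, GCGCANGCG of NRF1 was in 10 of 35 (28.6%) against 6.25% of 32851 promoters of all genes, and CCGGAAG, bound by ETS factors such as GABP, in 11 (31.4%) against 8.86%. AAGATGGC of YY1 was in 2 (5.71%) against 2.75%. No matches of different motifs overlapped. By their result in KD blastocysts, the NRF1 motif was in 5 of 13 symbols that were lower and in 5 of 18 that did not pass. The ETS motif was in 4 of 13 and 7 of 18, and that of YY1 in 1 of 13 and 1 of 18. The NRF1 and ETS motifs hold CG pairs, and the promoters of all genes were not matched to those of the members for base composition. The higher shares among members are thus not shown to be particular to these motifs. A match is a description of the letters and not a measured binding site. The promoters given from 5′ to 3′ are that of Atp5k (chr5:108434350-108434649, reverse strand), that of Atp5l (chr9:44920693-44920992, reverse strand) and that of Uqcrc1 (chr9:108936398-108936697, forward strand). The first 2 are genes that fell in KD blastocysts and hold both an NRF1 and an ETS motif, and the last is a gene that did not pass and holds 2 NRF1 motifs. Atp5h, Cox6a1 and Uqcr11 also hold both an NRF1 and an ETS motif, and did not pass. Capitals mark the motifs.
Atp5k: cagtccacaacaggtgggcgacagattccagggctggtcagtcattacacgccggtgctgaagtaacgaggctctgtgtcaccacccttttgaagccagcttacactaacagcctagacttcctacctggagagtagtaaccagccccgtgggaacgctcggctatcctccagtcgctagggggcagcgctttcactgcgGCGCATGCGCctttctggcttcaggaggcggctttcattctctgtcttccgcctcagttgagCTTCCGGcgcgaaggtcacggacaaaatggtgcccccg
Atp5l: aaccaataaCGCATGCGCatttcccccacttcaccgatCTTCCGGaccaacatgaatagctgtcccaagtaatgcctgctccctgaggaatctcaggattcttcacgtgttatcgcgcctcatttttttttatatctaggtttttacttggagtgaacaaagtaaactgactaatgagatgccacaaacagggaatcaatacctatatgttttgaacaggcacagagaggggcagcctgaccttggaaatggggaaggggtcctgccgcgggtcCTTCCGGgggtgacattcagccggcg
Uqcrc1: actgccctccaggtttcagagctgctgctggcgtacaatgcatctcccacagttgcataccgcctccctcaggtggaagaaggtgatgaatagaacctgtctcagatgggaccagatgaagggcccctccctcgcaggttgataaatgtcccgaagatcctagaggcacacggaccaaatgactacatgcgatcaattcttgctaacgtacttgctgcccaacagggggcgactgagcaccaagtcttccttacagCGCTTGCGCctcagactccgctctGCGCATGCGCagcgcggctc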

How the data were processed

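Libraries of 22 samples in 6 groups were compared. The authors aligned reads with STAR to mm10 (GRCm38) and deposited FPKM values per gene from StringTie 2.1.4, as the methods and the submitters' processing notes state. The table has 0 value columns without a sample. The number of reads per library is not known, and error from counting was not estimated. From the deposited FPKM, each library was divided by a median-of-ratios factor over the libraries compared, and log2(FPKM + 1) was tested with limma 3.58.1 in R 4.3.3 (eBayes with trend, Benjamini-Hochberg adjustment over all genes that reach 1 FPKM in 3 or more libraries). A fold change on this scale understates the change of low genes. Values and sums of single libraries are FPKM as deposited. Figures and annotation used Python 3.11.15, pandas 2.3.3, numpy 2.4.6 and matplotlib 3.10.9. Steps were tested on simulated data. Members and lists were chosen with earlier results of these data known. Named genes are, per comparison and complex, the 3 lowest and 3 highest log2 fold changes, the 3 most abundant members, isoform groups and DEGs of the lists. The text names fewer of these, and adds well-known genes and small counts of the lists. GENCODE vM21 matched 54587 gene identifiers with the same version and 55154 in any version, including the 46 members. Each comparison was repeated without the filter, with a pseudocount of 0.1, with FPKM as deposited, without each library and without the trend. Each was also repeated with early against later replicate numbers as a covariate. A replicate block was fitted in all but control blastocysts against control morulae. Comparisons of KD with control and of stages share control libraries, and no overlap between them was computed.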

Additional observations from a re-analysis of the deposited data

Results flagged for a closer look

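Values far from the other 3 were looked for in 242 groups of 4 libraries, for each member, the sums per complex and 12 other genes. About 1 in 20 groups would show one by chance, and 9 groups did. Uqcrh in 2-cell control replicate 4 had 26.6 FPKM, where the other 3 control libraries had 19.6 to 20.2 (gap over range 0.908). Cox6c in morula control replicate 7 had 670 FPKM, against 517 to 532 in the others (0.902). Uqcr10 in blastocyst control replicate 1 had 1090 FPKM, against 630 to 701 (0.848). In blastocyst KD replicate 4, Uqcrb had 605 FPKM, against 411 to 441 (0.844), and Atp5k 121, against 76.5 to 79.0 (0.943). Cox8b had 0.0915 FPKM in blastocyst KD replicate 6 and 0 in the others. Coa4 had 24.5 FPKM in morula control replicate 1, against 29.2 to 29.6 (0.929), and 52.3 in blastocyst control replicate 4, against 42.6 to 44.2 (0.835). Sco2 in blastocyst KD replicate 5 had 7.05 FPKM, against 10.6 to 10.96 (0.899). For 6 gene identifiers the test found a KD effect that differed between blastocysts and morulae, each more negative in blastocysts. This difference was −1.45 for Uqcrh on the log2 scale. For Atp5k it was −1.09, and for Atp5g3 it was also −1.09. The 2 identifiers of Atp5o had −0.95 (ENSMUSG00000022956.11) and −0.753 (ENSMUSG00000116933.1). Cox8a had −0.708.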

How the results depend on the processing

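Over all alternatives, 6130 values of 425 results on single genes were computed: 5653 kept their direction and side of the threshold, 272 no longer passed, 78 newly passed, 127 that did not pass changed sign, and 0 reversed. Of the counts of members, that of lower ones in KD blastocysts (16) was 8 without the filter (17.4%, against 5.98% of all genes) and 25 with FPKM as deposited (59.5%, against 20.1%). Higher members there (0) were 1 without the filter, 2 with the covariate and 0 to 2 without 1 library. In KD morulae the higher members (2) were 0 without the filter, 7 with the covariate and 0 to 3 without 1 library, and the lower ones (2) were 1 without the filter, 5 with FPKM as deposited and 1 to 3 without 1 library. From 2-cell embryos to morulae 1 member fell, and 2 did so without the filter (also Cox6a2) or with FPKM as deposited (also Cox4i2). The test of the difference between stages (6) gave 1 without the filter and 1 to 12 without 1 library. Over all genes, KD morulae had 465 higher and 993 lower, but 129 and 283 without the filter, 281 and 1553 as deposited, and 777 higher with the covariate. Higher genes were thus 31.9% of those that passed with scaling and 15.3% without. Without the filter 8962 genes fell to the morula stage (5506 with it), and 398 were higher in the difference between stages (691 with it). The cause was not tested. Pairs of KD and control libraries with the same replicate number deviated together weakly, with a mean r of 0.146, 0.138 and 0.0826 by stage from the earliest, against −0.0488, −0.0282 and −0.0289 for different numbers. Single values overlapped between the 2 kinds of pairs (r from −0.111 to 0.354 for the same number), so pairing was not established. By range of numbers rather than single numbers, pairs within a range had a mean r of 0.131, 0.180 and 0.0118 by stage, and pairs across ranges −0.131, −0.182 and −0.0224. In morulae the signs split fully by range, and in blastocysts the values overlapped. Since deviations sum to 0 within a group, these signs are not independent. With the replicate block, KD morulae had 5 higher and 2 lower members, KD blastocysts 1 higher and 20 lower, 2-cell embryos 0 and 0, the first stage step 37 higher and 1 lower, and the difference between stages 0 higher and 5 lower. No paired analysis was possible for control morulae and blastocysts because they share a single replicate number. After seeing the data, an alternative was added without the members that share at least 20% of their 75-base stretches, and 13 of 38 members were lower in KD blastocysts, 2 higher and 2 lower of 39 in KD morulae, and 4 of 39 lower in the difference between stages. The filter, pseudocount, block, covariate and trend do not enter summed FPKM. Differences of sums between KD and control blastocysts and between stages kept their direction throughout. The log2 ratio of sums for complex III in KD morulae was −0.17 as deposited and −0.05 with scaling. It changed sign without control replicate 8 (0.04) or KD replicate 1 (0.02), and was 0.00 without control replicate 7. For complex V in KD 2-cell embryos the ratio changed sign too (0.06 with scaling, −0.01 as deposited).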
